A study of Mus musculus with 4 samples.

Results

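Foxp3 negative CD4 T cells are the helper T cells of a tumour that carry CD4 but not FOXP3, the transcription factor of regulatory T cells. They were taken from single-cell RNA libraries of tumour-infiltrating immune cells by a fixed rule. A barcode (the tag of 1 droplet) was kept with 300 to 5000 detected genes and at most 6% mitochondrial UMIs, a UMI being 1 counted transcript molecule. It then had to hold UMIs of at least 2 of the 5 T cell genes Cd3d, Cd3e, Cd3g, Trac and Trbc2 and of Cd4, and no UMI of Cd8a, Cd8b1, Foxp3 or of Csf1r, a receptor of macrophages and monocytes. The rule found 648 cells among 55090 deposited barcodes, of which 51841 lay inside the limits on genes and mitochondrial UMIs.

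The study asked how the immune cells of pancreatic tumours differ after activation of STING, an adaptor that cyclic dinucleotides such as cGAMP activate, and of the lymphotoxin β receptor (LTβR), alone and together. KPC cells, a mouse pancreatic cancer line, were grown under the skin of male C57BL/6 mice of 8 to 10 weeks, and live CD45+ cells were sorted from tumours resected on day 14. The groups were Untreated, ADU-S100 (a STING agonist injected once into the tumour at 2 µg), anti-LTβR (an agonist antibody given intraperitoneally in 4 injections of 100 µg) and Combination (both agonists in those amounts). Each group was 1 library from 10 pooled tumours, so that mice could not be separated, no difference between groups could be tested and no p-value is given. The intervals below are exact 95% intervals unless another kind is named, and they cover counting error only. They do not cover the difference between tumours, and since a few cells can hold many UMIs of 1 gene they are too narrow even for the cells.

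Conventional CD4 T cells recognise peptides on MHC class II. Naive and central memory cells use CCR7 to enter lymph nodes and lymphoid aggregates, whereas effector cells are grouped by the cytokines they secrete: interferon γ in type 1, IL-4, IL-5 and IL-13 in type 2, IL-17 and IL-22 in type 17, and IL-21 in follicular helper cells that assist B cells. CD40 ligand on activated CD4 T cells licenses dendritic cells and B cells, and LTβR is the receptor of lymphotoxin αβ, a ligand that T and B cells make during the formation of lymphoid tissue.

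The rule took 159 cells from the Untreated library, 78 from ADU-S100, 284 from anti-LTβR and 127 from Combination. Their median depth was 3139, 3745, 2891 and 2060 UMIs per cell in that order, which is the order of all values below, and their summed UMIs were 552687, 297665, 922492 and 313677. Combination was thus the shallowest library per cell and ADU-S100 the one with fewest cells. The marker genes Cd4, Cd3e, Trac, Icos and Cd40lg were present in all 4 libraries, at a summed 3268, 3514, 3084 and 2923 CPM (the UMIs of a gene per 1000000 UMIs summed over these cells in the library). Cd4, Cd3e and Trac were part of the rule, so that Icos and Cd40lg alone were checks of the label. A mast cell list was at 0 UMIs, a γδ T cell list held 7, 1, 10 and 0 UMIs, and a list of carcinoma and fibroblast genes held 9, 2, 8 and 4 UMIs.

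Transcripts of other immune cells were found in many of the cells, and a few barcodes held large numbers of them. Between 3 and 4 cells per library, 14 in all, held at least 10 UMIs of B cell, plasma cell, macrophage and monocyte or neutrophil markers, or of a list of dendritic cell genes that was almost wholly the MHC class II genes Cd74 and H2-Ab1. One Combination barcode of 21248 UMIs held 2179 of the 2309 plasma cell UMIs of that library and 11 of its 12 B cell UMIs, and one ADU-S100 barcode held 207 of 424 neutrophil UMIs. Neutrophil markers summed to 32.6, 1424, 18.4 and 169 CPM, found in 1.89%, 17.9%, 4.93% and 4.72% of the cells, and to 3.73, 98.3, 17.9 and 52.2 CPM without the 14 barcodes, highest in ADU-S100 with and without them. At least 1 plasma cell transcript was found in 14.5%, 16.7%, 41.9% and 61.4% of the cells, at least 1 macrophage or monocyte transcript in 39.6%, 37.2%, 32.0% and 46.5% and at least 1 transcript of Cd74 or H2-Ab1, which B cells, macrophages and dendritic cells share, in 39.0%, 41.0%, 36.3% and 60.6%. Cd74 and H2-Ab1 summed to 505, 359, 299 and 657 CPM, and to 173, 157, 161 and 466 CPM without the 14 barcodes, whereas the 5 other dendritic cell genes (Flt3, Xcr1, Clec9a, Cd209a and Siglech) held 0, 0, 10 and 1 UMIs. The macrophage and monocyte markers summed to 270, 168, 151 and 255 CPM, and to 158, 127, 140 and 251 CPM without the 14 barcodes. The natural killer cell genes Ncr1, Klrb1c, Klre1 and Eomes held 28, 0, 60 and 1 UMIs, and Tyrobp, a signalling adaptor of natural killer and myeloid cells, was at 39.8, 148, 53.1 and 38.3 CPM. The part of this RNA in the differences below was not tested beyond leaving out the 14 barcodes, and 7 of the 648 barcodes also occurred in another library, none of them as a Foxp3 negative CD4 T cell there.

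The rule depends on single transcripts, and its edges were populated. Cd4 was at 1 UMI in 35.2%, 29.5%, 42.3% and 52.8% of the cells. Cells with exactly 2 of the 5 T cell genes numbered 24, 11, 44 and 29, and barcodes that met all other conditions with only 1 of these genes numbered 11, 6, 28 and 25. Among cells with 2 T cell genes Icos stood at 967, 1077, 964 and 685 CPM, and among the barcodes with 1 at 1542, 1613, 759 and 816 CPM. The condition on Foxp3 removed 83, 29, 54 and 18 barcodes, the one on CD8 33, 4, 26 and 6, and the one on Csf1r 18, 16, 37 and 12. T cell barcodes with a UMI of neither Cd4 nor the CD8 genes, 349, 214, 727 and 457 in number, are outside the rule and hold an unknown number of CD4 T cells.

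Foxp3 negative CD4 T cells made up a smaller share of CD45+ cells in both libraries that received ADU-S100. They were 2.04% (1.74 to 2.38%) of the barcodes inside the limits in Untreated, 0.544% (0.431 to 0.679%) in ADU-S100, 2.02% (1.80 to 2.27%) in anti-LTβR and 0.809% (0.675 to 0.962%) in Combination. The share was 0.266 times that of Untreated with ADU-S100 (log-normal interval 0.203 to 0.349), 0.989 times with anti-LTβR (0.816 to 1.20) and 0.396 times with the combination (0.314 to 0.499), and Combination was 1.49 times ADU-S100 (1.12 to 1.97). All T cell barcodes showed the same order, at 0.263 times Untreated with ADU-S100 and 0.540 times with the combination. A share of sorted CD45+ cells falls when other immune cells increase, and the 2 cannot be told apart here.

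Within the T cell barcodes (1102, 534, 1726 and 1202) the picture differed. Foxp3 negative CD4 T cells were 14.4%, 14.6% and 16.5% of them in the first 3 libraries and 10.6% (8.88 to 12.4%) in Combination, 0.732 times Untreated (0.589 to 0.911). The number of CD8 T cells per Foxp3 negative CD4 T cell was 3.01, 2.67, 2.23 and 4.68. Foxp3 positive CD4 T cells, selected by the same rule with at least 1 Foxp3 UMI, numbered 83, 29, 54 and 18, so that Foxp3 negative cells made up 65.7% (59.4 to 71.7%), 72.9% (63.4 to 81.0%), 84.0% (79.7 to 87.8%) and 87.6% (81.1 to 92.5%) of all CD4 T cells. The ratio of Foxp3 negative to Foxp3 positive cells was 1.92, 2.69, 5.26 and 7.06. The libraries also differed in depth, and its part in these shares was not tested beyond thinning. When every barcode was thinned to 1000 UMIs before the rule was applied, 71, 26, 109 and 70 cells were found, or 0.987%, 0.202%, 0.853% and 0.549% of the barcodes that had 1000 UMIs, and 9.34%, 7.90%, 9.30% and 8.57% of the T cell barcodes. At equal depth the share of T cell barcodes thus spanned 7.90% to 9.34%, and 20, 3, 10 and 5 Foxp3 positive CD4 T cells were left. CD8 T cells then numbered 317, 101, 342 and 348, beside 71, 26, 109 and 70 Foxp3 negative CD4 T cells. The number of CD8 T cells per Foxp3 negative CD4 T cell in Combination was thus nearer to that in Untreated than before thinning.

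**Figure D1:**
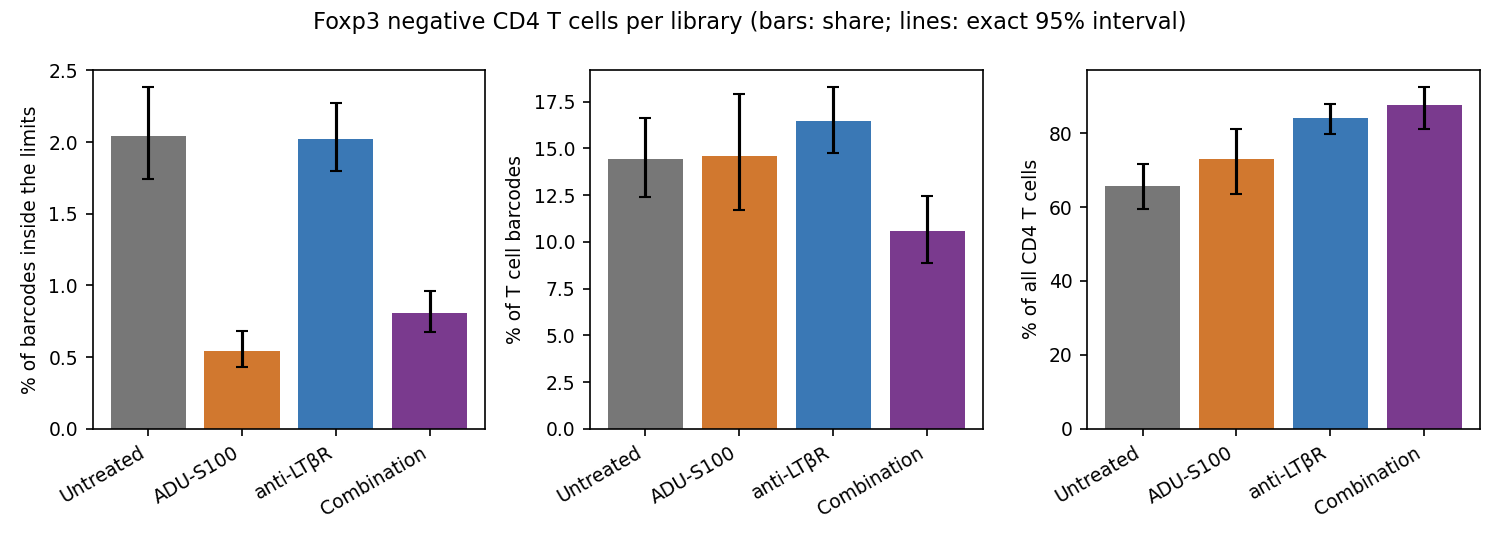
Bars give Foxp3 negative CD4 T cells as a percent of barcodes inside the limits (left), of T cell barcodes (middle) and of all CD4 T cells (right) in the 4 libraries, with exact 95% intervals. ADU-S100 (0.544%) and Combination (0.809%) lie below Untreated (2.04%) on the left, and the right panel runs from 65.7% in Untreated to 87.6% in Combination.

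Gene levels were compared as summed CPM. A gene entered a comparison with at least 30 UMIs over both libraries, and it was called higher or lower where its level differed by at least 1.5-fold and the conditional interval of the ratio left out 1. The 3 comparisons with Untreated share that library, and both comparisons of Combination with 1 agonist share Combination. Against Untreated, 266 genes were called higher and 321 lower with ADU-S100 of 4837 that entered (5.5% and 6.64%), 277 and 214 of 6657 with anti-LTβR (4.16% and 3.21%), and 184 and 287 of 4970 with the combination (3.7% and 5.77%, or 9.48% in either direction). Combination had 258 genes higher and 306 lower than ADU-S100 of 3816 (6.76% and 8.02%), and 190 higher and 335 lower than anti-LTβR of 6107 (3.11% and 5.49%, or 8.6% in either direction). The split between directions depended on the scaling. With median-of-ratios scaling it was 323 higher and 245 lower for ADU-S100 against Untreated and 230 and 251 for Combination against anti-LTβR. With totals that left out immunoglobulin, T cell receptor, mitochondrial and ribosomal protein genes it was 234 and 221 for Combination against Untreated and 248 and 234 for Combination against anti-LTβR.

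About as many genes of naive and central memory T cells were called higher as were not called in each treated library. Against Untreated, 5 of the 10 genes that entered were called higher with ADU-S100 (background 5.5%), 6 of 11 with anti-LTβR (4.16%) and 6 of 11 with the combination (3.7%), and none was called lower. The median log2 ratio of the list was 0.67, 0.70 and 0.83, beside -0.07, 0.02 and -0.05 over all genes. Combination had 2 genes higher and 2 lower than ADU-S100 (background 6.76% and 8.02%) and 2 higher and 1 lower than anti-LTβR (3.11% and 5.49%).

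Ccr7, the receptor for the lymph node chemokines CCL19 and CCL21, stood at 74.2, 60.5, 99.7 and 239 CPM. Combination lay above all other libraries, by a log2 ratio of 1.68 to Untreated (1.12 to 2.27), of 1.95 to ADU-S100 and of 1.26 to anti-LTβR. One Untreated cell held 18 of the 41 Ccr7 UMIs there, and the log2 ratio of Combination to Untreated was 2.32 without the top cell of each library. Igfbp4, a secreted protein that binds insulin-like growth factors and is a marker of naive CD4 T cells, was at 5.43, 10.1, 81.3 and 182 CPM. Only 3 UMIs of it were counted in Untreated and 3 in ADU-S100, and its log2 ratio to Untreated was 3.69 in anti-LTβR (2.30 to 6.21) and 4.86 in Combination (3.45 to 7.38).

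The transcription factors of the list followed another pattern, in which several were above Untreated with each treatment. Satb1, a chromatin organiser of T cells, was at 409, 904, 663 and 781 CPM, with log2 ratios of 1.14, 0.70 and 0.93. Bach2, a repressor of effector genes, was at 248, 454, 524 and 548 CPM, and all 3 ratios were called (0.87, 1.07 and 1.14). Lef1, a partner of β-catenin, was at 147, 309, 299 and 395 CPM, but 1 ADU-S100 cell held 32 of the 92 UMIs of that library, and its log2 ratio of 1.08 was 0.55 without the top cells. Klf2, which drives S1pr1, was at 148, 306, 322 and 194 CPM, higher with either agonist alone (1.04 and 1.11) and lower in Combination than with either (-0.65 and -0.72). Il7r, the receptor of IL-7, was at 1030, 1925, 913 and 934 CPM and was called higher in ADU-S100 (0.90). No comparison called Tcf7, at 326, 346, 423 and 414 CPM, or S1pr1, the receptor for exit from tissue, at 177, 218, 246 and 169 CPM.

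The share of cells with a UMI of Ccr7 was 7.55%, 17.9%, 12.3% and 25.2% (12, 14, 35 and 32 cells). At 1000 UMIs per cell it was 3.88%, 5.25%, 5.39% and 15.6%. Combination was then 4.02 times Untreated (2.16 to 7.48) and 2.89 times anti-LTβR (1.88 to 4.45), whereas the intervals of ADU-S100 (0.657 to 2.78) and anti-LTβR (0.743 to 2.60) against Untreated held 1. Among Csf1r positive barcodes, whose median depth was 7252, 7450, 5307.5 and 3529 UMIs, Ccr7 was found in 1.91%, 2.55%, 1.60% and 2.69%, below the shares of the Foxp3 negative CD4 T cells before thinning.

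Cells with a Ccr7 UMI differed from the other Foxp3 negative CD4 T cells in further genes. Over the 4 libraries Lef1 was found in 55.9% of the 93 such cells and in 33.9% of the other 555, Tcf7 in 63.4% and 41.8%, Cxcr6 in 29.0% and 47.2%, and Tbx21 in 3.23% and 16.8%. The contrast in Lef1 came from anti-LTβR (74.3% against 34.5%) and Combination (50.0% against 31.6%), with 33.3% against 31.3% in Untreated and 42.9% against 40.6% in ADU-S100, and Tcf7 was found in 41.7% against 41.5% in Untreated. Igfbp4 was at 0, 47.6, 223 and 425 CPM in the cells with Ccr7 and at 5.87, 0, 53.2 and 81.1 CPM in those without. Satb1 was at 484, 1031.5, 1403 and 1363 CPM with and at 403, 869, 517 and 541 CPM without, which sets ADU-S100 apart: there Satb1 was also high outside the Ccr7 cells. The cells with Ccr7 had a median of 3560 UMIs and the others 2868.

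**Figure D2:**
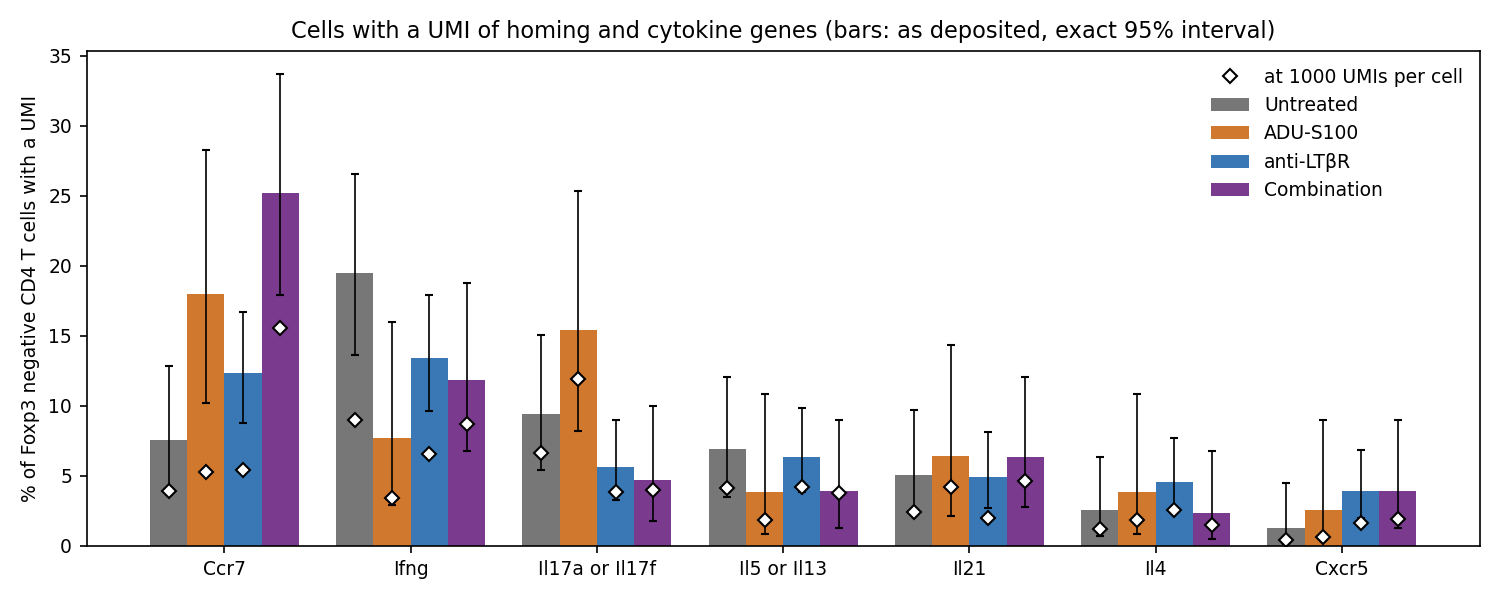
Bars give the percent of Foxp3 negative CD4 T cells with a UMI of the named genes in each library, with exact 95% intervals, and diamonds the percent at 1000 UMIs per cell. Ccr7 reaches 25.2% (15.6% at equal depth) in Combination against 7.55% (3.88%) in Untreated. The intervals of all libraries overlap for Ifng, Il17a or Il17f, Il5 or Il13, Il21, Il4 and Cxcr5.

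Of 13 activation genes, 6 were called higher and 1 lower with ADU-S100 against Untreated (background 5.5% and 6.64%), and 3 of 13 were lower with the combination (5.77%). With anti-LTβR 1 of 14 was higher, near the background of 4.16%. Against ADU-S100, 4 of 13 were lower in Combination (8.02%) and none was higher. Cd69, an early activation antigen that also retains T cells in tissue, was at 232, 538, 385 and 143 CPM. Relative to Untreated its log2 ratio was 1.21 in ADU-S100 (0.87 to 1.56), 0.73 in anti-LTβR (0.44 to 1.04) and -0.68 in Combination (-1.21 to -0.19). At 1000 UMIs it was found in 19.6%, 31.3%, 26.8% and 12.5% of the cells, so that the order held at equal depth. Neutrophil markers were also highest in ADU-S100, and without the 14 barcodes, which left 98.3 CPM of them there, the log2 ratio of Cd69 in ADU-S100 was 1.33 and the median of the list 0.49 in place of 0.38.

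Egr1, an immediate early transcription factor downstream of the T cell receptor, was at 70.6, 118, 105 and 31.9 CPM and lowest in Combination. Nr4a3, another early T cell receptor target, was at 239, 470, 299 and 220 CPM and called against Untreated in ADU-S100 (higher) and in no other library. Tnfrsf9, the costimulatory receptor 4-1BB, was at 163, 292, 167 and 217 CPM, and Irf4 and Batf, which act together in effector differentiation, were also called higher in ADU-S100, each by a log2 ratio of 0.66. Il2ra, the IL-2 receptor α chain, was at 490, 228, 395 and 319 CPM, but 1 Untreated cell held 114 of 271 UMIs, and its log2 ratio in ADU-S100 was -1.09 with and -0.59 without the top cells. Il2ra was also called lower with the combination, where its log2 ratio was -0.15 without the top cells, under the 1.5-fold limit.

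Among 11 stress and immediate early genes, 5 were called higher in ADU-S100 than in Untreated (background 5.5%, median 0.78) and 6 lower in Combination than in ADU-S100 (background 8.02%, median -0.88). Fos, a subunit of AP-1, was at 261, 480, 306 and 242 CPM and Fosb at 118, 296, 162 and 159 CPM. In ADU-S100, cells with a UMI of Ikzf2 or Il2ra had 675 CPM of Fos and cells without had 313 CPM, and over cells without either gene the median of the list was 0.033 in ADU-S100 against Untreated and -0.0041 in Combination against ADU-S100, so that neither difference held there. Without the 14 barcodes rich in other immune RNA the medians were 0.73 and -0.91. Jun was at 121, 269, 120 and 223 CPM, with 32 of 80 UMIs in ADU-S100 and 33 of 70 in Combination in 1 cell each.

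Of the 15 T cell receptor and signalling genes, 1 was called higher with ADU-S100 (Cd40lg), none with anti-LTβR and 1 with the combination (Cd247), counts near the backgrounds of 5.5%, 4.16% and 3.7%, and none was called lower. Cd40lg, the ligand of CD40, was at 186, 289, 229 and 143 CPM, by log2 ratios to Untreated of 0.63, 0.29 and -0.37, and Combination was below ADU-S100 (-1.0) and anti-LTβR (-0.66). Cd40lg transcripts were found in 33.3%, 39.7%, 35.6% and 18.9% of Foxp3 negative CD4 T cells, in 2.41%, 3.45%, 9.26% and 11.1% of Foxp3 positive ones and in at most 4.33% of CD8 T cells. Icos, a costimulatory receptor of activated and follicular helper cells, was at 1125, 1421, 970 and 845 CPM and differed between Combination and ADU-S100 (log2 ratio -0.75). Cd247, the ζ chain of the receptor complex, was at 604, 551, 777 and 925 CPM and higher in Combination than in Untreated (0.61).

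Against Untreated 5 of 10 type 17 genes were called higher with ADU-S100 (Il17a, Il17f, Il22, Il1r1 and Ahr, background 5.5%), 4 of 9 were lower with anti-LTβR (3.21%) and 3 of 9 with the combination (5.77%), and 6 of 10 were lower in Combination than in ADU-S100 (8.02%). Il17a had 83, 148, 74 and 35 UMIs in 12, 10, 14 and 5 cells, or 150, 497, 80.2 and 112 CPM. One ADU-S100 cell held 65 of the 148 UMIs, and the log2 ratio to Untreated was 1.72 with and 1.29 without the top cells. Il17f was at 92.3, 235, 13.0 and 19.1 CPM, and Il22, a cytokine that acts on epithelium, had 9, 100, 13 and 0 UMIs, 54 of the 100 in 1 cell. Il1r1, the IL-1 receptor that sustains IL-17 producing cells, was at 92.3, 218, 66.1 and 38.3 CPM and showed the same order of ADU-S100 above Untreated above Combination.

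The number of IL-17 cells was less certain than the number of transcripts. A UMI of Il17a or Il17f was found in 15, 12, 16 and 6 cells, which was 6.59%, 11.9%, 3.82% and 3.95% at 1000 UMIs per cell. The interval of ADU-S100 against Untreated held 1 (1.81 times, 0.890 to 3.68), and that of Combination against ADU-S100 did not (0.331, 0.130 to 0.847). At most 0.0493% of Csf1r positive barcodes in any library held Il17a. Over the libraries the 49 cells had Ccr6, a homing receptor of type 17 cells, in 42.9% against 6.84% of the others, Il1r1 in 63.3% against 7.35% and Il23r, the IL-23 receptor, in 36.7% against 4.84%. Pdcd1 was found in 8.16% of them and 37.4% of the others, and none held a UMI of Ifng, Il4, Il5, Il13 or Il21. Their median depth was 3595 UMIs and that of the others 2869.

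Type 1 genes showed no common direction across the list. Against Untreated, 2 genes were called higher and 3 lower of 11 with ADU-S100, 1 and 1 of 13 with anti-LTβR, and 3 and 4 of 12 with the combination, while Combination had 2 higher and 5 lower of 13 against anti-LTβR (median -0.58, and 0.13 over cells with no UMI of Ikzf2 and Il2ra). The shares of all genes called higher and lower were 5.5% and 6.64%, 4.16% and 3.21%, and 3.7% and 5.77% against Untreated and 3.11% and 5.49% against anti-LTβR. One of the 3 genes higher with the combination was Il2, the T cell growth factor, with 22 of its 24 UMIs in 1 cell, and its log2 ratio to Untreated was -0.77 without the top cells. Il2 was also the 1 gene higher with anti-LTβR, with 104 of 121 UMIs in 1 cell. Ifng, the type 1 cytokine that activates macrophages and antigen presentation, was at 172, 70.5, 133 and 281 CPM, from 31, 6, 38 and 15 cells. In Combination 1 cell held 58 of the 88 UMIs, and the log2 ratio to Untreated turned from 0.71 to -0.37 without the top cells. At 1000 UMIs per cell, Ifng was found in 8.99%, 3.38%, 6.55% and 8.70% of the cells, with ADU-S100 at 0.376 times Untreated (0.164 to 0.863) and Combination at 0.968 times (0.547 to 1.71). CD8 T cells had Ifng in 45.7%, 34.6%, 28.9% and 25.1%, and Csf1r positive barcodes in at most 0.248%.

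Of 13 homing receptor genes, 1 was called higher and 3 lower in Combination than in Untreated (backgrounds 3.7% and 5.77%, median -0.12). Against ADU-S100, 2 were higher and 5 lower of 13 (6.76% and 8.02%), and against anti-LTβR 1 and 1 of 13 (3.11% and 5.49%). Among the type 1 and homing genes, Il18r1, Cxcr6 and Ccr2 were 3 of those called lower in Combination than in Untreated. Il18r1, a subunit of the IL-18 receptor, was at 698, 769, 631 and 373 CPM, with log2 ratios of Combination to Untreated, ADU-S100 and anti-LTβR of -0.90, -1.04 and -0.75. Cxcr6, the receptor for CXCL16 on resident T cells, was at 443, 329, 332 and 220 CPM, called lower than Untreated in Combination (-1.0), where detection at 1000 UMIs was 0.612 times that of Untreated (0.453 to 0.827). Ccr2, the receptor for CCL2 on effector T cells and monocytes, was at 244, 232, 238 and 118 CPM, with Combination below each of the others (log2 ratios -1.04, -0.97 and -1.0). No call was made against Untreated for Cxcr3, or for Tbx21, the type 1 transcription factor T-bet, at 63.3, 37.0, 86.7 and 44.6 CPM.

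Of the cytotoxic genes, 6 of 10 were lower than in Untreated with ADU-S100 (background 6.64%), 6 of 12 with anti-LTβR (3.21%) and 7 of 11 with the combination (5.77%), and 1, 1 and 0 were higher. Few Untreated cells carried much of this. Ccl4, an inflammatory chemokine, was at 1248, 47.0, 74.8 and 217 CPM, with 267 of 690 Untreated UMIs in 1 cell. Ccl5, a chemokine of effector and memory T cells, was at 836, 108, 391 and 79.7 CPM, with 111 of 462 UMIs in 1 Untreated cell and 199 of 361 in 1 anti-LTβR cell. Gzmc, a granzyme, had 150, 1, 18 and 13 UMIs. Nkg7, a protein of cytotoxic granules, was at 476, 168, 333 and 239 CPM, lower than Untreated in ADU-S100 (-1.49) and Combination (-0.99). The median log2 ratio of the list to Untreated was -2.04, -0.98 and -2.23, and -0.52, -0.12 and -1.01 over cells with no UMI of Ikzf2 and Il2ra. With 6 more lineage genes at 0 it was -0.13 for anti-LTβR and -0.76 for Combination. Gzma, another granzyme, was among the genes called lower with anti-LTβR and the combination, and its log2 ratios turned to 2.72 and 0.82 without the top cells. The 4 natural killer cell genes also had fewest UMIs in ADU-S100 and Combination (28, 0, 60 and 1), and the part of such cells was not tested.

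Of the type 2 genes that entered against Untreated, 0 were called higher and 2 lower of 9 with ADU-S100, 3 and 2 of 11 with anti-LTβR, and 0 and 5 of 9 with the combination (medians 0.04, 0.30 and -0.87), beside backgrounds of 5.5% and 6.64%, 4.16% and 3.21%, and 3.7% and 5.77%. The cytokine transcripts came from few cells. Il5, the eosinophil growth factor, had 349, 5, 75 and 1 UMIs, and 339 of the 349 were in 1 cell. Il13 had 165, 5, 418 and 35 UMIs with 149 and 166 in the top cells of Untreated and anti-LTβR, and Il4 had 12, 6, 162 and 5. Against Untreated Il4 was called higher in anti-LTβR (log2 ratio 2.96, 2.17 to 4.00), from 13 cells with 93 of the 162 UMIs in 1, and without the top cells it was 2.47. Il13 was called higher there too (0.60), and its ratio was 3.20 without the top cells. The ratio of Il5 in anti-LTβR turned from -2.95 to 0.85 without the top cells, and that of Il13 in Combination from -1.40 to 0.73, so that these calls rested on the top cells. Cells with Il5 or Il13 numbered 11, 3, 18 and 5, and at 1000 UMIs per cell their share was 4.10%, 1.84%, 4.19% and 3.79%, with intervals of anti-LTβR (0.495 to 2.11) and Combination (0.330 to 2.59) against Untreated that held 1.

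Receptors and regulators of type 2 cells were spread over more cells than the cytokines. Il1rl1, the IL-33 receptor ST2, was at 154, 191, 282 and 82.9 CPM, higher than Untreated in anti-LTβR (0.87) and lower in Combination than in Untreated (-0.87), ADU-S100 (-1.19) and anti-LTβR (-1.74). Gata3, the type 2 transcription factor, was at 201, 175, 248 and 163 CPM and called only between Combination and anti-LTβR (-0.60). Ccr4, a skin and type 2 homing receptor, was at 72.4, 73.9, 55.3 and 28.7 CPM, called lower in Combination than in Untreated (-1.27). Over the libraries the 37 cells with Il5 or Il13 had Gata3 in 78.4% against 29.8% of the others, Il1rl1 in 70.3% against 11.1%, Il2ra in 89.2% against 26.4% and Tcf7 in 8.11% against 47.1%. Of the 23 cells with Il4, 15 also held Il5 or Il13 and none held Ifng. Cells with Il5 or Il13 had a median of 3812 UMIs and the others 2888.

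**Figure D3:**
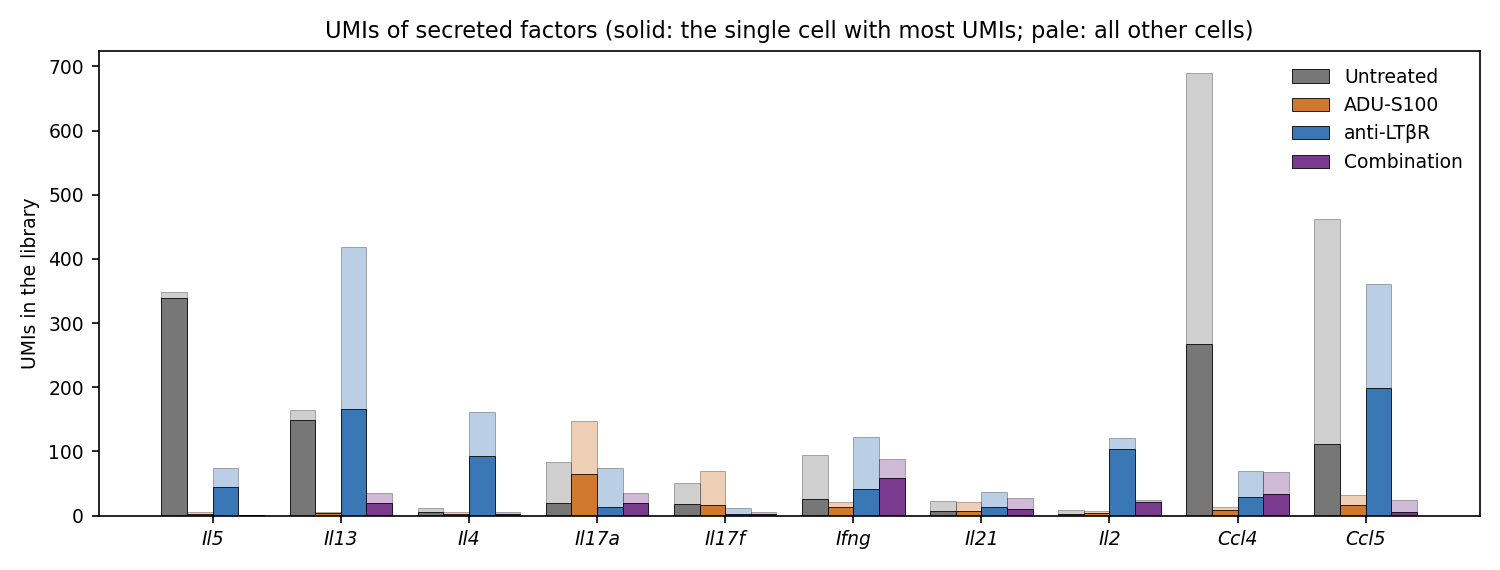
Bars give the UMIs of 10 secreted factors in each library, with the single cell that holds most in solid colour and all other cells in pale colour. For Il5 in Untreated 339 of 349 UMIs are in 1 cell, and for Il17a in ADU-S100 65 of 148 are.

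Follicular helper genes were mixed. Against Untreated, 2 genes were called higher and 1 lower of 11 with ADU-S100, 4 and 1 of 14 with anti-LTβR, and 4 and 1 of 13 with the combination. The shares over all genes were 5.5% and 6.64%, 4.16% and 3.21%, and 3.7% and 5.77%, and the single genes called lower were near them. Tox2, a transcription factor that supports follicular helper cells, was at 21.7, 3.36, 48.8 and 115 CPM, with 1 UMI in ADU-S100, a log2 ratio of 1.12 with anti-LTβR and of 2.36 (1.43 to 3.48) with the combination. Slamf6, an adhesion receptor between T and B cells that is also found on stem-like T cells, was at 161, 228, 225 and 360 CPM and higher in Combination (1.16). Bcl6, the defining repressor of these cells, was at 47.0, 90.7, 87.8 and 70.1 CPM, called with ADU-S100 (0.95) and anti-LTβR (0.88). Pdcd1, which encodes the inhibitory receptor PD-1, was at 347, 309, 216 and 217 CPM and lower in anti-LTβR (-0.69) and Combination (-0.67).

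Cxcr5, the receptor that guides cells into B cell follicles, was too sparse to enter any comparison and was found in 2, 2, 11 and 5 cells. These were 1.26%, 2.56%, 3.87% and 3.94% of the cells, and at 1000 UMIs per cell 0.403%, 0.605%, 1.65% and 1.93%, and the ratio of Combination to Untreated was 4.80 with an interval of 0.948 to 24.4. Csf1r positive barcodes held Cxcr5 in 0.773%, 1.53%, 1.12% and 1.01%. The 20 cells with Cxcr5 had Tox2 in 40% against 6.53% of the others, Sh2d1a, an adaptor for SLAM receptors, in 65% against 22.5%, Bcl6 in 40% against 15.3%, Cxcr6 in 10% against 45.7% and no Il2ra. Il21, the cytokine that supports B cells and CD8 T cells, had 23, 22, 37 and 27 UMIs in 8, 5, 14 and 8 cells, or 41.6, 73.9, 40.1 and 86.1 CPM, and in at most 0.0552% of Csf1r positive barcodes. Of the 35 cells with Il21, 13 held Ifng and 5 held Cxcr5, and Pdcd1 was found in 71.4% against 33.1% of the others and Lag3, an inhibitory receptor for MHC class II, in 51.4% against 13.1%.

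Regulatory associated genes were counted although Foxp3 was at 0 by the rule. Against Untreated, 2 were called higher and 4 lower of 13 with ADU-S100, 2 and 2 of 14 with anti-LTβR, and 1 and 3 of 14 with the combination, where all genes gave 5.5% and 6.64%, 4.16% and 3.21%, and 3.7% and 5.77%. The medians were -0.17, -0.32 and -0.21. Il2ra was 1 of the 3 genes lower with the combination, and its log2 ratio there was -0.15 without the top cells. Ikzf2 and Il2ra are on this list, and without these 2 genes the medians were -0.05, -0.32 and -0.21 over all cells and 0.38, -0.31 and 0.13 over cells with no UMI of either. In Foxp3 positive CD4 T cells Ikzf2, which encodes Helios, was found in 100%, 96.6%, 92.6% and 72.2%, so that regulatory T cells whose Foxp3 transcript was not captured and Foxp3 negative helper cells with Ikzf2 or Il2ra cannot be told apart. Cells with a UMI of either gene were 47.2%, 43.6%, 47.9% and 41.7% of the Foxp3 negative cells. Ikzf2 was at 445, 165, 315 and 599 CPM, lower than Untreated in ADU-S100 (-1.42) and higher in Combination than in ADU-S100 (1.85) and anti-LTβR (0.93). With each cell weighed the same, the first 2 of these ratios were -0.76 and 1.31, outside their intervals. Izumo1r, which encodes folate receptor 4 of regulatory, anergic and follicular helper cells, was at 27.1, 97.4, 60.7 and 86.1 CPM, called higher with each treatment (1.82, 1.13 and 1.64). Klrg1, an inhibitory receptor of terminally differentiated cells, was called lower with each (-2.00, -1.52 and -1.79), at 59.7, 13.4, 20.6 and 15.9 CPM and from 8, 2, 9 and 3 cells. Izumo1r was found in 48.2%, 44.8%, 50.0% and 38.9% of Foxp3 positive CD4 T cells.

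Of the inhibitory receptors against Untreated, 3 of 10 were lower with ADU-S100 (background 6.64%), 4 of 11 with anti-LTβR (3.21%) and 2 of 11 with the combination (5.77%), and Cd200 was the 1 called higher with anti-LTβR (4.16%) and with the combination (3.7%). Ctla4, the competitor of CD28, was at 1460, 1082, 918 and 816 CPM (log2 ratios -0.43, -0.67 and -0.84). Havcr2, the receptor TIM-3, was at 156, 50.4, 68.3 and 108 CPM, lower with ADU-S100 (-1.59) and anti-LTβR (-1.19) and not called with the combination (-0.51). Tigit, a receptor for CD155, was at 299, 178, 189 and 261 CPM and called lower with either agonist alone. Over cells with no UMI of Ikzf2 and Il2ra the median of the list in Combination against Untreated was 0.34 in place of -0.19.

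Ligands of the TNF family include those of LTβR itself. Against Untreated, 1 of 7 that entered was called higher with ADU-S100 (background 5.5%), 3 of 9 with anti-LTβR (4.16%) and 1 of 7 with the combination (3.7%). None was called lower. Ltb, the membrane anchor of lymphotoxin αβ, was at 441, 363, 350 and 354 CPM and Lta, the other subunit, was also called in no comparison with Untreated. Tnfsf11, which encodes RANKL, was at 176, 249, 317 and 389 CPM, called higher with anti-LTβR (0.85) and the combination (1.15). It was found in 27.0%, 34.6%, 28.5% and 29.9% of Foxp3 negative CD4 T cells, in 4.80%, 6.73%, 6.15% and 3.70% of CD8 T cells and in 3.61%, 10.3%, 1.85% and 5.56% of Foxp3 positive CD4 T cells. Tnfsf8, the CD30 ligand, was at 729, 1035, 747 and 854 CPM without a call. Fasl, the death ligand, was at 48.9, 63.8, 81.3 and 28.7 CPM, higher in anti-LTβR than in Untreated (0.72) and lower in Combination than in anti-LTβR (-1.43). Ltbr, the target of the antibody, had 1, 2, 1 and 0 UMIs in these cells.

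Of the interferon-stimulated genes 9 were called lower at day 14 in Combination than in Untreated. Of those that entered against Untreated, 1 was called higher and 1 lower of 28 with ADU-S100, 1 and 1 of 32 with anti-LTβR, and 0 and 9 of 28 with the combination, with medians of -0.10, -0.07 and -0.56. Over all genes 5.5% and 6.64%, 4.16% and 3.21%, and 3.7% and 5.77% were called, so that the counts for either agonist alone were no higher than the background and are no result about the list. Isg15, a ubiquitin-like protein, was at 114, 121, 84.6 and 60.6 CPM (-0.89 in Combination). Herc6, an ISG15 ligase, was at 145, 111, 118 and 63.8 CPM (-1.16 in Combination), and Slfn5, a Schlafen protein, was at 110, 101, 134 and 54.2 CPM (-1.0). Ifi27l2a, an interferon response gene, was at 1444, 907, 920 and 947 CPM and lower than Untreated in all 3 treated libraries.

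Guanylate-binding proteins and immunity-related GTPases, which respond to interferon γ and act against intracellular microbes, were counted as a list of their own. Of the genes that entered, 2 were higher and 2 lower of 15 with ADU-S100, 0 and 6 of 16 with anti-LTβR, and 0 and 8 of 14 with the combination (medians -0.21, -0.34 and -0.74), against backgrounds of 5.5% and 6.64%, 4.16% and 3.21%, and 3.7% and 5.77%. Gbp4 was at 157, 134, 128 and 63.8 CPM (-1.28 in Combination), Gbp6 at 152, 131, 103 and 57.4 CPM (-1.37) and Gbp2 at 161, 90.7, 66.1 and 70.1 CPM (-0.81, -1.28 and -1.17). Gbp family members are near copies of each other, and reads that fit several of them could be lost or split in counting. No comparison with Untreated called any of the 11 genes of MHC class I presentation. Sting1, the target of ADU-S100, was at 83.2, 67.2, 67.2 and 35.1 CPM and lower in Combination (-1.20).

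**Figure D4:**
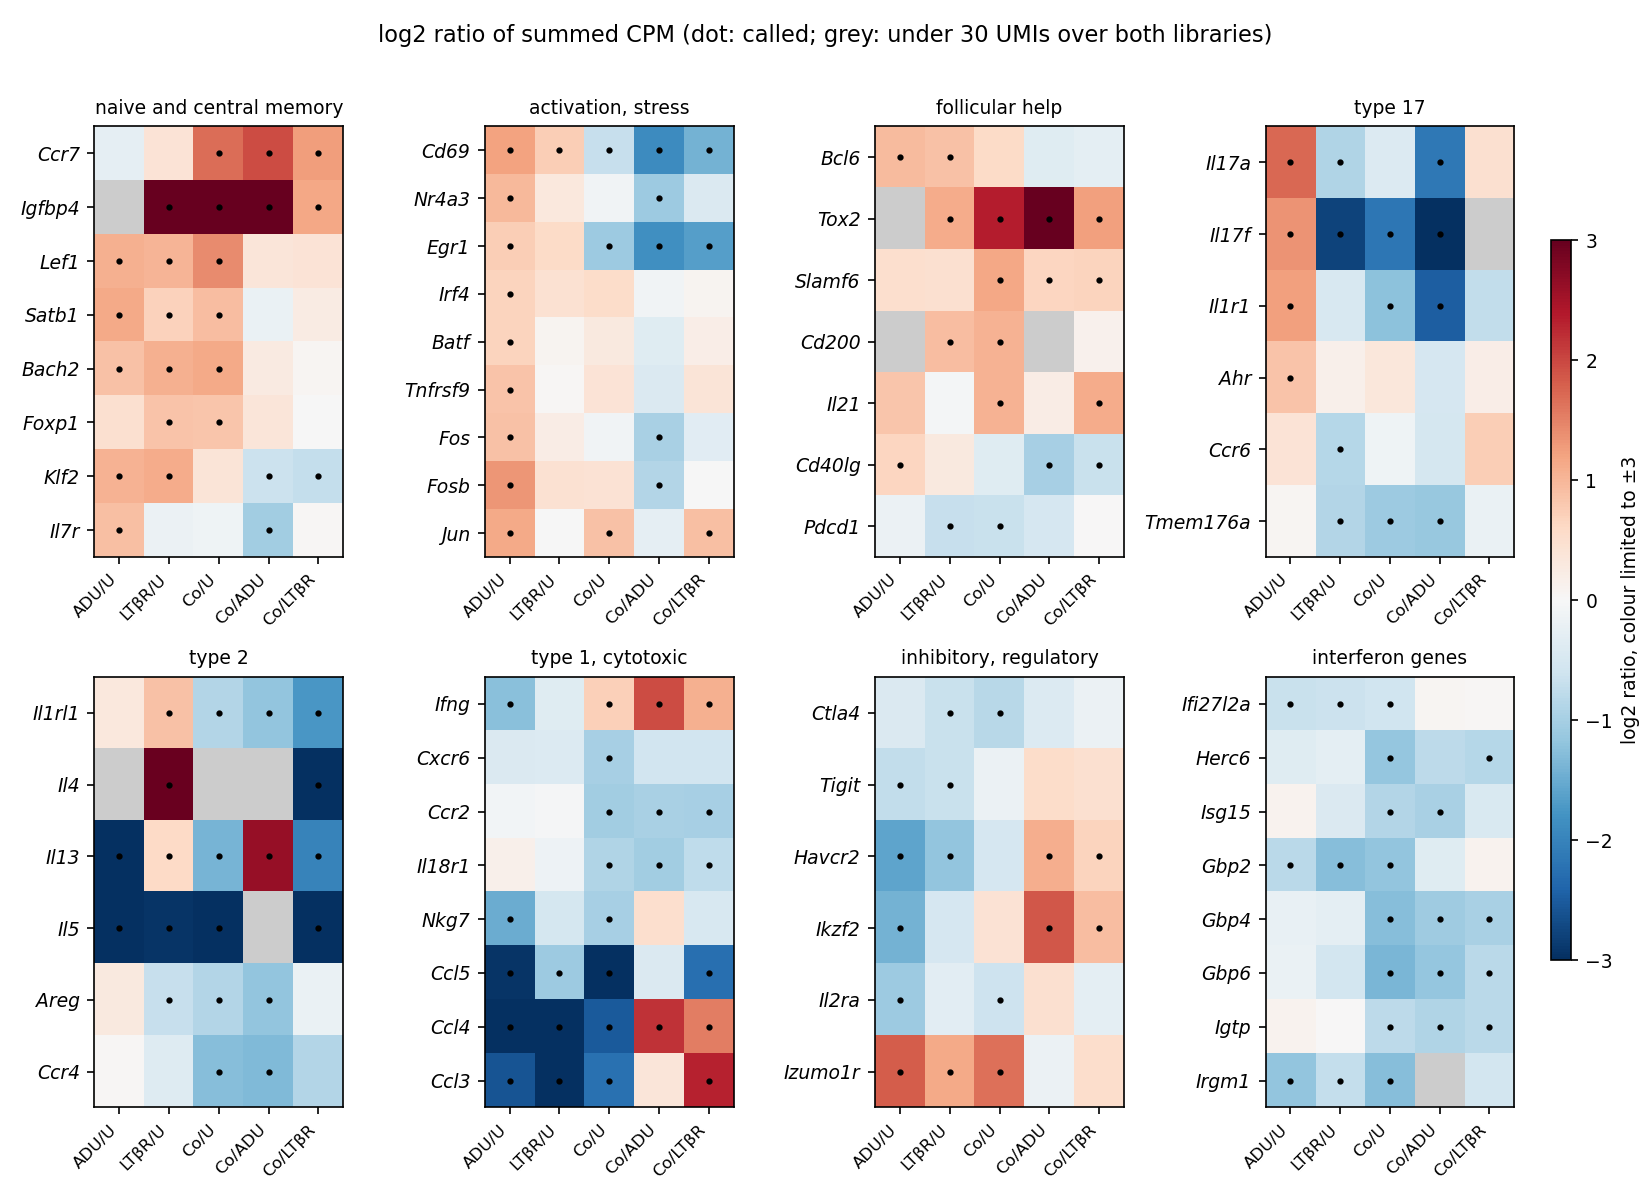
Colours give the log2 ratio of summed CPM for named genes of 8 role groups in 5 comparisons (U, Untreated; ADU, ADU-S100; LTβR, anti-LTβR; Co, Combination), dots mark called genes and grey marks genes under 30 UMIs over both libraries. Dots lie on Lef1, Satb1, Bach2, Klf2, Il7r, Il17a, Il17f, Il1r1 and Ahr for ADU-S100 against Untreated (higher), and on Isg15, Herc6, Gbp4 and Gbp6 for Combination against Untreated (lower).

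Of the cell cycle genes that entered against Untreated, 2 of 6 were called lower with ADU-S100 (background 6.64%), 2 of 10 higher with anti-LTβR (4.16%) and 3 of 7 higher with the combination (3.7%; medians -0.26, 0.47 and 0.52), and none was called in the other direction. Combination had 2 of 5 higher than ADU-S100 (6.76%). Top2a, a topoisomerase of dividing cells, was at 57.9, 57.1, 117 and 105 CPM, higher with anti-LTβR, where 1 cell held 26 of 108 UMIs, and with the combination (log2 ratio 0.86). Mcm5 and Mcm6, subunits of the replicative helicase, were at 18.1, 10.1, 26.0 and 76.5 CPM and at 56.1, 63.8, 77.0 and 108 CPM, and both were higher in Combination than in Untreated (2.04 and 0.95). Mki67, a marker of cycling cells, was at 94.1, 43.7, 129 and 115 CPM, lower than Untreated in ADU-S100 (-1.07). Slc2a1, the glucose transporter GLUT1, was the 1 of 9 glycolysis genes called higher with ADU-S100 (background 5.5%), at 66.9, 185, 78 and 47.8 CPM (1.46). Il21r, the IL-21 receptor, was at 123, 138, 202 and 220 CPM, higher with anti-LTβR (0.71) and the combination (0.84).

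Over the whole transcriptome, the following genes had the interval bound farthest from no change. With ADU-S100 higher were Ppp1r15a, which ends the integrated stress response (85.0, 336, 143 and 102 CPM, log2 ratio 1.97), Ust (92.3, 346, 158 and 137 CPM), the AP-1 gene Fosl2 (172, 558, 273 and 179 CPM), Ramp3, a partner of calcitonin-type receptors (183, 558, 260 and 226 CPM), and Scml4 (90.5, 299, 281 and 277 CPM), which was higher with every treatment. Lower with ADU-S100 were Tmem163 (119, 13.4, 116 and 57.4 CPM, log2 ratio -2.99), Fam185a, Setbp1, Airn and Yipf1. With anti-LTβR, Igfbp4, Patj, Scml4, Dzip1 and Nckap5 were higher. Plek, a substrate of protein kinase C, was lower at 179, 185, 62.9 and 98.8 CPM (-1.51), as were Gbp2, Havcr2, Iigp1 and Abhd17a.

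By the same rule, Tshz2 (38.0, 20.2, 92.1 and 150 CPM, log2 ratio 1.96), Ccr7, Scml4 and Actn1, an actin crosslinker (21.7, 23.5, 69.4 and 92.5 CPM, 2.06), were named as higher with the combination than in Untreated. Igfbp4 lay farther from no change (4.86) but was left out, since 1 cell held 21.1% of its Combination UMIs. Trat1, an adaptor that stabilises the T cell receptor complex, was lower at 188, 158, 149 and 54.2 CPM (-1.76). Rgs1, a regulator of G protein signalling that dampens chemokine responses and marks resident T cells, was lower at 735, 753, 704 and 347 CPM (-1.08), and so were St6galnac3, Rgcc and Ctla2a. Against ADU-S100, Combination had higher Tshz2, Ccr7 and Ly75 and lower Cd69, Rgs2 and the carboxypeptidase M gene. Rgs2 was at 353, 837, 269 and 255 CPM. Against anti-LTβR it had higher H2-Eb1, Ccr7 and Sdf4 and lower Il1rl1, Pard3 (1 UMI in Combination) and Taok2 (2 UMIs). H2-Eb1 is an MHC class II gene of antigen-presenting cells, at 145, 101, 54.2 and 147 CPM, with 38 of 80 UMIs in 1 Untreated cell and 17 of 50 in 1 anti-LTβR cell. Its levels were high in the libraries where macrophage and monocyte markers (270 and 255 CPM) and the other MHC class II genes Cd74 and H2-Ab1 (505 and 657 CPM) were high too, while Flt3, Xcr1, Clec9a, Cd209a and Siglech held 0 and 1 UMIs there. The part of RNA from other cells in it was not tested.

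**Figure D5:**
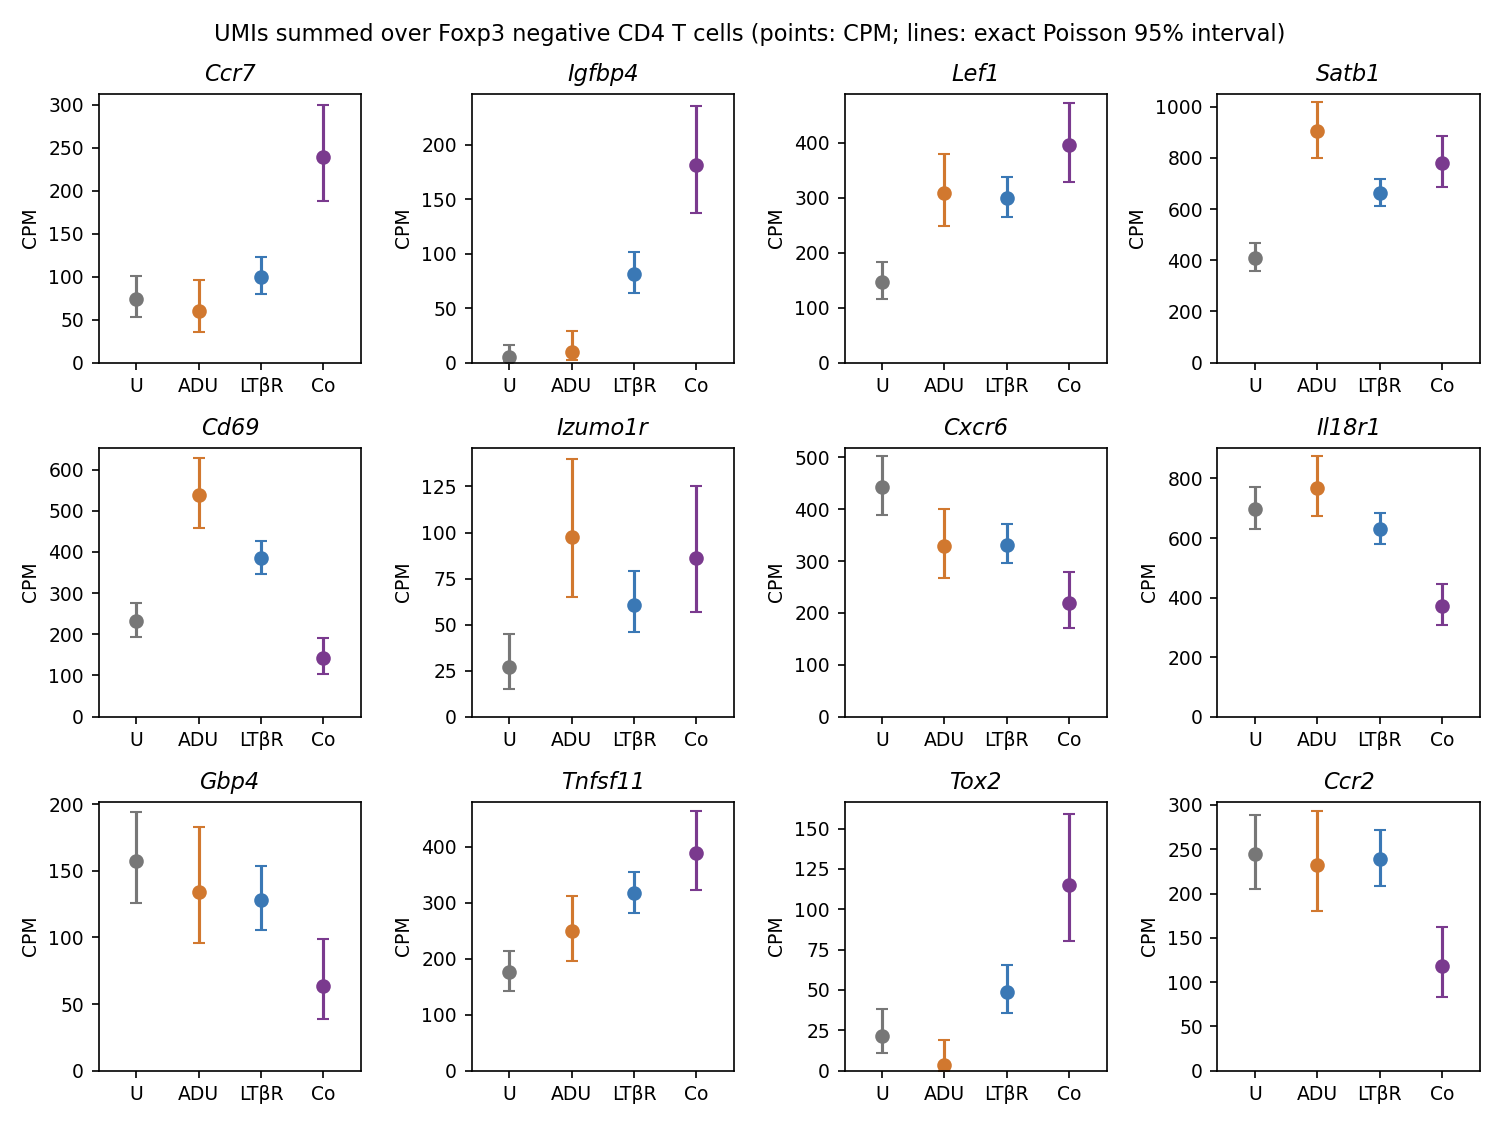
Points give summed CPM of 12 genes in Foxp3 negative CD4 T cells per library (U, Untreated; ADU, ADU-S100; LTβR, anti-LTβR; Co, Combination), with exact Poisson 95% intervals. Ccr7 is highest in Combination (239 CPM) while Cd69 (143 CPM), Cxcr6 (220 CPM) and Il18r1 (373 CPM) are lowest there.

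T cell receptor β variable transcripts were found in 107, 56, 122 and 52 of the cells, from 18, 18, 17 and 16 variable genes. The most frequent gene was Trbv1 in Untreated, at 13.1% (7.34 to 21.0%) of cells with such a transcript, and Trbv13-2 in the others, at 14.3%, 15.6% and 21.2% (11.1 to 34.7%), intervals that overlap. In CD8 T cells the most frequent gene reached 31.6%, 14%, 18.1% and 25.5%. One α variable gene, Trav14d-3-dv8, was found in 46.7%, 32.6%, 36.7% and 26.7% of CD8 T cells with an α variable transcript, whereas the most frequent one in Foxp3 negative CD4 T cells reached 9.80%, 11.1%, 7.69% and 13.3%. Among anti-LTβR cells with Il4, 4 of the 8 with a β variable transcript held Trbv1, and among those with Il5 or Il13 5 of 10 did. Variable genes alone do not define a clone, and no paired receptor sequences were used here.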

How the data were processed

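Live CD45+ cells of KPC tumours from 4 groups, with 1 library of 10 pooled tumours per group, were profiled by droplet 5′ single-cell RNA-seq. The deposited matrices hold raw UMI counts per gene and barcode, which per the file headers came from Cell Ranger 8.0.1 (the submitters' processing notes name 7.1.0). They list 33696 features for 8730, 15404, 14634 and 16322 barcodes (Untreated, ADU-S100, anti-LTβR, Combination) with 62248447, 85855398, 73704334 and 52109958 UMIs. No coordinates are given, since the sources differ on the processing version.

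Foxp3 negative CD4 T cells were selected with Python 3.11.15, numpy 2.4.6, scipy 1.17.1 and pandas 2.3.3, and plotted with matplotlib 3.10.9. The cells and the gene lists were chosen with earlier results of these data known. Counts of each gene were summed over cells and divided by the summed UMIs (CPM, Poisson intervals). Log2 ratios had 0.5 UMI added and conditional binomial intervals. Percentages have Clopper-Pearson and their ratios log-normal 95% intervals. Detection at 1000 UMIs was the hypergeometric expectation per cell, leaving out the 2, 0, 8 and 9 cells that were shallower. The intervals of ratios of such shares rest on the number of cells with a UMI before thinning, so they are narrower than the thinned counts alone would give. Genes were called at 1.5-fold with an interval that left out 1 and at least 30 UMIs over both libraries. With 1 library per group no test was run.

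Roles came from 19 lists of 250 genes, 249 of them found. Beside these, the 5 genes called higher and the 5 lower whose interval bound lay farthest from no change were named per comparison with Untreated, and 3 of each for Combination against either agonist. Immunoglobulin, T cell receptor variable and joining, mitochondrial, ribosomal protein, sex-linked and predicted genes, markers of other cell types and genes with over 20% of UMIs in 1 cell of the higher library were left out of that rule, and a few genes of the lists and of the rule are not reported here. Cd4 edges, splits by Ccr7 and by Ikzf2 or Il2ra, and co-detection were chosen after values were seen. Doublets were kept in the main analysis and removed by Scrublet scores (scanpy 1.11.5) in an alternative, as were other denominators, thresholds, scalings and weights. The functions were tested on simulated data with known ratios. The depth of 2060 to 3745 UMIs per cell limits the detection of sparse transcripts, and PCR and capture make intervals cover counting error only.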

Additional observations from a re-analysis of the deposited data

Results flagged for a closer look

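Of the genes in the role lists or named by the rule for the whole transcriptome, 15 were called in opposite directions for an agonist given alone, against Untreated, and added to the other agonist, in Combination against that other agonist. This held for 12 genes with ADU-S100 and 8 with anti-LTβR, and for 5 with both. Over all genes that entered both comparisons it held for 59 of 4778 (1.23%) and 27 of 3801 (0.71%). The carboxypeptidase M gene, Fosl2, Ly75, Ppp1r15a and Ust were in the set only through the rule, which named them for their ratios in these same libraries. The counts of 12 and 8 therefore cannot be read as an excess over the shares of all genes. The difference between the readings of a gene was not tested, since each group was 1 library, and both readings rest on the same 4 libraries. Without the cell with most UMIs of the gene in each library, 9 of the 12 and 7 of the 8 were still called in opposite directions. The calls that ended were Cd40lg, Havcr2 and Ifng with ADU-S100 and Klf2 with anti-LTβR.

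With ADU-S100, 6 of the 12 genes were higher alone and lower when it was added. For Cd69 the log2 ratios were 1.21 (0.87 to 1.56) and -1.41 (-1.90 to -0.97), a difference of -2.62, and for Klf2 1.04 and -0.72, a difference of -1.76. Cd40lg gave 0.63 and -0.66 (a difference of -1.29, with 0.49 alone and no call without the top cells), Fosl2 1.69 and -0.60 (-2.30) and the carboxypeptidase M gene 0.95 and -1.49 (-2.43). Egr1 gave 0.74 and -1.66, a difference of -2.40, with 22.9% of its ADU-S100 UMIs in 1 cell.

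The other 6 were lower with ADU-S100 alone and higher when it was added. For Ikzf2 the ratios were -1.42 and 0.93 (a difference of 2.35), for Ly75 -1.26 and 0.95 (2.21) and for Havcr2 -1.59 and 0.68 (2.26), with 23.5% of the Havcr2 UMIs of Combination in 1 cell. With each cell weighed the same, the ratio of Ikzf2 with ADU-S100 alone was -0.76. For Ifng, Ccl3 and Ccl4 the differences were 2.33, 4.91 and 6.22, with 65.9%, 58.5% and 50.0% of the Combination UMIs in 1 cell. Without the top cells the log2 ratio of Combination to anti-LTβR was 0.14 for Ifng (-0.53 to 0.74, from 1.08) and 0.49 for Havcr2 (-0.26 to 1.17), so that neither was then called higher when ADU-S100 was added.

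With anti-LTβR, Cd69 gave 0.73 alone and -1.89 when it was added, Klf2 1.11 and -0.65 (-0.54 and no call without the top cells), and Fosl2 0.66 and -1.63, with the same differences as above. Ppp1r15a gave 0.74 and -1.70 (a difference of -2.45), Ust 0.77 and -1.33 (-2.10) and Il1rl1 0.87 and -1.19 (-2.06), with 28.1% of the Il1rl1 UMIs of ADU-S100 in 1 cell. Havcr2 (-1.19 and 1.08) and Ccl4 (-4.05 and 2.16) were lower alone and higher when it was added. The libraries also differed in median depth per cell (3139, 3745, 2891 and 2060 UMIs), and its part in these differences was not tested.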

How the results depend on the processing

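No paired analysis was possible because each group had 1 library and the labels give only replicate number 1, and for the same reason no library could be left out. The share of Foxp3 negative CD4 T cells kept its ratios within their intervals with at least 3 T cell genes, with high doublet scores removed, with 6 more lineage genes at 0 and without the mixed barcodes, the last chosen after seeing the data, under which all 95 list medians also moved by less than the median half-width of their genes' intervals and all 10 counts of called genes within 1.5 times. With T cell barcodes as denominator the ratio was 1.01 for ADU-S100 and 0.732 for Combination against Untreated, and 0.723 and 0.642 for Combination against ADU-S100 and anti-LTβR. Thinned before the rule, Combination was 0.556, 2.71 and 0.643 times Untreated, ADU-S100 and anti-LTβR.

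Genes called higher and lower, in the order ADU-S100, anti-LTβR and Combination against Untreated, Combination against ADU-S100 and against anti-LTβR, were 139 and 109, 124 and 77, 67 and 120, 65 and 130, and 70 and 169 with a minimum of 100 UMIs. With a fold of 2 they were 117 and 182, 125 and 96, 99 and 143, 146 and 148, and 100 and 164. Without the top cell of each gene, 98 were higher in Combination than in anti-LTβR.

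Over cells with no UMI of Ikzf2 and Il2ra the list medians against Untreated were 0.71 (regulatory associated), -0.52 (cytotoxic), 0.033 (stress) and 0.64 (glycolysis) for ADU-S100, -0.12 (cytotoxic) for anti-LTβR, and 0.15 (T cell receptor), 0.31 (regulatory), 0.34 (inhibitory) and -1.01 (cytotoxic) for Combination. Combination against ADU-S100 gave 0.72 (naive), 0.48 (type 2) and -0.0041 (stress), and against anti-LTβR 0.13 (type 1), 0.14 (type 2) and 0.62 (regulatory). The regulatory list holds Ikzf2 and Il2ra, which are at 0 in these cells by construction, and without them its medians were 0.38, 0.13 and 0.21 in place of 0.71, 0.31 and 0.62. With 6 more lineage genes at 0, the cytotoxic median was -0.13 for anti-LTβR and -0.76 for Combination against Untreated.

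Of 318 called values of single genes, all 318 stayed inside their interval with 1 UMI added. Without the top cells 28 moved outside and 7 turned: Gzma (2.72 for anti-LTβR and 0.82 for Combination), Il5 (0.85 for anti-LTβR), Ifng (-0.37), Il13 (0.73) and Il2 (-0.77) for Combination against Untreated, and Il2 (-0.92) for Combination against ADU-S100. Without the mixed barcodes 13 moved and 2 turned, Ly6c2 (-0.13, Combination against ADU-S100) and Jun (-0.0017, Combination against anti-LTβR). With each cell weighed the same, 26 moved. Not thinned, the share with Ccr7 in Combination was 1.40 times ADU-S100, and that with Cd69 in anti-LTβR 1.09 times Untreated. The cause of these changes was not tested. Depth limits calls to genes with at least 30 UMIs, and Cxcr5 and most cytokines rest on fewer than 20 cells per library.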
